A study of Mus musculus with 6 samples.

Results

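The genes examined here set or mark the CD4, CD8 and regulatory T cell (Treg) branches of the T cell lineage. They were Cd4, Zbtb7b, Cd40lg and Gata3 for the CD4 branch, Cd8a, Cd8b1 and Runx3 for the CD8 branch, and Foxp3 and Ikzf2 for Treg cells. These 9 genes were chosen by name after their response to sphingosine-1-phosphate (S1P) was known, so the comparison of S1P with vehicle is given for them as a description, with no p-value. All 9 were found in the table of 56941 genes, and all 9 were among the 13299 genes with enough counts to be tested. RNA was measured in 3 vehicle-treated and 3 S1P-treated samples. The labels describe naive CD8+ T cells purified from spleens of B6 mice, with no other genotype, age or sex given. In both groups the cells were activated for 3 days on plate-bound antibodies to CD3 and CD28 with recombinant IL-2, and at 24 h the medium received vehicle or S1P at 5 µM. S1P is a lipid ligand of a family of G protein-coupled receptors on T cells, and it was added to the whole culture. Which receptor it acted through was not tested in these samples. The labels call the samples biological replicates but do not say that they came from separate mice, and p-values then measure only the spread between these samples.

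CD4 and CD8 are the coreceptors that help the T cell receptor bind MHC class II and class I molecules, and a mature conventional T cell keeps only one of them. In the thymus ThPOK, the product of Zbtb7b, holds the helper fate and represses CD8 lineage genes, while RUNX3 silences Cd4 and maintains cytotoxic genes. GATA3 acts upstream of ThPOK and later drives type 2 helper cells, and it is also expressed by activated CD8+ T cells. FOXP3 is the defining factor of Treg cells, and Helios, the product of Ikzf2, is found in most thymus-derived Treg cells and in some activated T cells.

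The libraries differed from their label in all 6 samples. Cd4 gave about as many counts as Cd8a in the vehicle-treated cultures, and B cell markers were detected at a high level in every library, so no result could be repeated without the libraries concerned. In the study's methods the cultures started from either total splenocytes or naive T cells that had been purified. Total counts were 13636095 to 17089831 in vehicle-treated and 12048880 to 17384084 in S1P-treated samples. S1P replicate 2 stood apart. Mitochondrial genes took 7.8% of its counts against 4.1 to 4.93% in the other 5 libraries, and a chi-square of its counts against those of the other S1P replicates gave 16 and 27.1 per gene, where the remaining S1P pair gave 5.39 and the vehicle pairs 3.5 to 3.63. The differences of the 9 genes are therefore also given without this library. Levels are CPM (counts scaled to a common library size), with library sizes scaled by TMM, a method that matches libraries on the bulk of their genes.

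Cd8a and Cd8b1, which encode the CD8α and CD8β chains, were lower in S1P-treated than in vehicle-treated cultures, while Runx3, the factor that maintains the CD8 fate, was higher. For Cd4 the groups overlapped. Zbtb7b, Cd40lg and Gata3 on the CD4 side and Ikzf2 among the Treg genes were higher with S1P. Foxp3 was low in both groups, and these overlapped. Of the 9 genes, 7 were past both thresholds of edgeR's quasi-likelihood test, which were set at 0.05 for the adjusted p and at 0.3 for the size of the log2 difference. Of all tested genes, 23.1% were past them. Among the 9 genes 5 were higher and 2 lower, where 12.7% of all tested genes were higher and 10.4% lower. The groups did not overlap for the same 7 genes, where 45.6% of all tested genes had groups that did not overlap (23.0% higher and 22.6% lower). Nothing is read from these counts, since the genes were picked with this contrast known. The plot of each library shows the values described below.

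**Figure D1:**
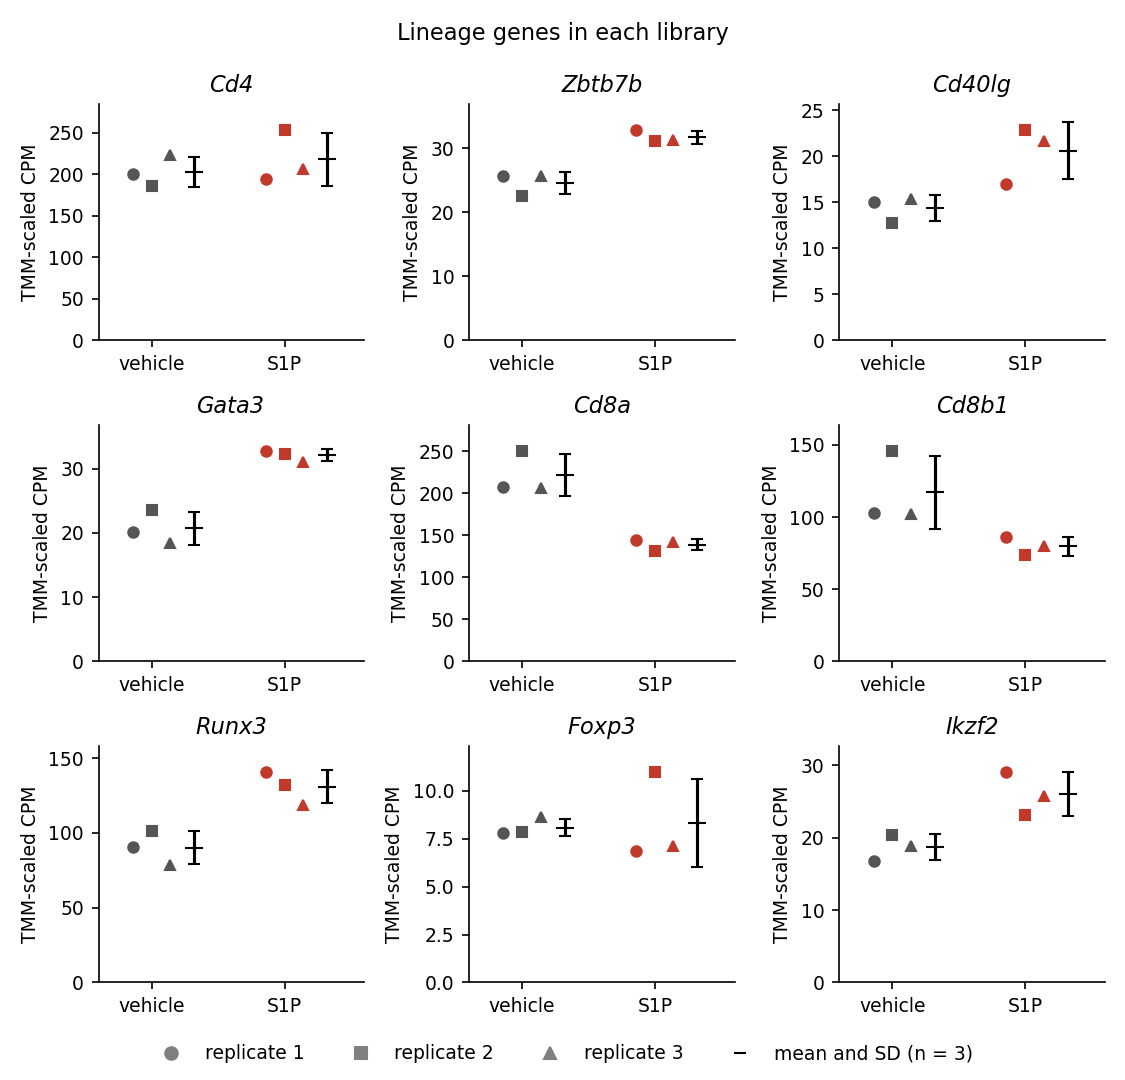
TMM-scaled CPM of the 9 lineage genes in each of the 6 libraries, with vehicle in grey and S1P in red, a symbol for each replicate number, and the group mean with its SD (n = 3) to the right. Each vertical axis starts at 0. The 3 S1P values of Cd8a (132 to 144 CPM) lie below all vehicle values, those of Gata3 (31.1 to 32.8 CPM) lie above them, and the groups overlap for Cd4 and Foxp3.

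The CD8 genes lie next to each other on chromosome 6. In GRCm39, Cd8b1 (ENSMUSG00000053044) spans chr6:71299772-71315087 and Cd8a (ENSMUSG00000053977) chr6:71350411-71356157, both on the plus strand and 35.3 kb apart. Cd8a was at 208, 251 and 207 CPM in vehicle replicates 1 to 3 and at 144, 132 and 142 CPM in S1P replicates 1 to 3. Every S1P-treated sample was below every vehicle-treated one, and the 3 S1P samples were closer to each other (139 ± 6.59, SD, n = 3) than the vehicle samples (222 ± 24.9). The fold change was 0.629, a log2 difference of -0.67 with a standard error of 0.08. In bulk RNA, fewer cells of a type and less RNA of the gene per cell cannot be told apart.

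Cd8b1 was at 103, 146 and 102 CPM with vehicle and at 86.1, 73.4 and 79.7 CPM with S1P. The groups did not overlap, but vehicle replicate 2 was well above the other vehicle samples, as it was for Cd8a. The log2 difference was -0.55 with a standard error of 0.13, and without vehicle replicate 2 it was -0.37. The 2 chains were in similar proportion, with 1.92 ± 0.179 Cd8a counts per Cd8b1 count with vehicle and 1.75 ± 0.0703 with S1P (SD, n = 3 each), and the groups overlapped in this proportion. Leaving out S1P replicate 2 gave -0.63 for Cd8a and -0.49 for Cd8b1.

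Runx3 (ENSMUSG00000070691, chr4:134847952-134905301, plus strand) was higher with S1P, opposite to the CD8 genes. It was at 90.9, 101 and 78.8 CPM with vehicle and at 141, 132 and 119 CPM with S1P. All S1P samples were above all vehicle samples, with means of 131 ± 11.2 and 90.1 ± 11.0 CPM (SD, n = 3 each) and a log2 difference of 0.54 with a standard error of 0.09. Without S1P replicate 2 the difference was 0.53.

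Promoter sequences are shown for Cd8a and Runx3, the CD8 pair whose RNA levels differed in opposite directions. Each is the 250 bases before an annotated RefSeq start on GRCm38.p6, an older build than the one used for the gene positions, and is written 5′ to 3′ on the gene's strand. Capitals mark the letters TGTGGT or their reverse complement ACCACA, the core bound by RUNX factors. The Cd8a window is chr6:71373177-71373426, and the 2 Runx3 windows are chr4:135120395-135120644 (first start) and chr4:135152295-135152544 (second start).
Cd8a: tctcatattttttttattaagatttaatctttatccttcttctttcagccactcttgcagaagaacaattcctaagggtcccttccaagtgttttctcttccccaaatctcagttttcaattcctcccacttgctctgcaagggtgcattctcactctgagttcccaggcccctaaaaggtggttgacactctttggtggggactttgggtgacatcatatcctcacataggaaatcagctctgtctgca
Runx3, first start: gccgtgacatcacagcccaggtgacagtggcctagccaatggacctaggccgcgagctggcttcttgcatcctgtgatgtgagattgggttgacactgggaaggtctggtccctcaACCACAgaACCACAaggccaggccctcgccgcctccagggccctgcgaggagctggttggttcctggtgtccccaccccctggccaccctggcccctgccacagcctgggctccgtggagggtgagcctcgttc
Runx3, second start: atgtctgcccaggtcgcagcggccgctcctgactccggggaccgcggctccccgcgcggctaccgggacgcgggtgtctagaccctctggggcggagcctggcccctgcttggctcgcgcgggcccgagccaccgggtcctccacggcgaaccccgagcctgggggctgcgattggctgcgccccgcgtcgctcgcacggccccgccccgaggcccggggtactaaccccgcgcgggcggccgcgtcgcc
The first Runx3 window held 2 copies, which begin 134 and 126 bases before the start, and neither the second Runx3 window nor the Cd8a window held these letters. Of 32851 mouse promoter windows of the same length, 14% held at least 1 copy on either strand and 1.27% held 2 or more.

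The table of promoters matched 5 of the 9 genes, Cd8a, Runx3, Zbtb7b, Gata3 and Foxp3. The second Zbtb7b window (chr3:89387672-89387921, minus strand, GRCm38.p6) held 1 RUNX core, 89 bases before the start, and the Gata3 and Foxp3 windows held none. The GATA core AGATAA (on the other strand TTATCT), which shares no bases with a RUNX match in these windows, was found in 9.99% of all windows and once among the genes here, 47 bases before the second Foxp3 start. A match is a description of letters and not of a bound site, and no match says only that these letters are not in the window.
Zbtb7b, second start: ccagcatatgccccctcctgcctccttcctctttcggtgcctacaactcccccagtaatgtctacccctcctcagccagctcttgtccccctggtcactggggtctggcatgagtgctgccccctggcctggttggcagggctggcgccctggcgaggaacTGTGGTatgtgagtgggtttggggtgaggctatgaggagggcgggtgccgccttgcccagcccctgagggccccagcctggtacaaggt
Foxp3, second start: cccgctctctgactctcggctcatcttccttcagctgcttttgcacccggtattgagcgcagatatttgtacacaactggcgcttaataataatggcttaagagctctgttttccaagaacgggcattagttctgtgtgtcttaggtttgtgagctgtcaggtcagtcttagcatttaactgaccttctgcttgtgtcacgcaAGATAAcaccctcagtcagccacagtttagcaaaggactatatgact

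Cd4 (ENSMUSG00000023274, chr6:124841655-124874758, minus strand) was at 201, 186 and 223 CPM with vehicle and at 195, 254 and 206 CPM with S1P. The groups overlapped, and the highest value belonged to S1P replicate 2. The means were 203 ± 18.4 and 218 ± 31.6 CPM (SD, n = 3 each) and the log2 difference was 0.10 with a standard error of 0.10, so no difference was visible beyond the spread of the replicates. Without S1P replicate 2 the difference was -0.02.

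Zbtb7b (ENSMUSG00000028042, chr3:89284942-89302144, minus strand) encodes ThPOK, the repressor that holds the helper fate. It was at 25.7, 22.6 and 25.6 CPM with vehicle and at 32.9, 31.1 and 31.2 CPM with S1P, and the groups did not overlap. The log2 difference was 0.37 with a standard error of 0.09 over all samples and 0.38 without S1P replicate 2. Exons of Dcst2 and Gm15417 on the opposite strand cover 15.7% of its exon bases, and the strand setting of the counting is not given in the sources used here. Relative to its opponent, Zbtb7b gave 27.7 ± 5.04 counts per 100 Runx3 counts with vehicle and 24.4 ± 1.64 with S1P (SD, n = 3 each), and the groups overlapped.

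Cd40lg (ENSMUSG00000031132, chrX:56257405-56269902, plus strand) encodes CD40 ligand, by which activated helper cells signal to B cells and dendritic cells. It was at 15.0, 12.8 and 15.4 CPM with vehicle and at 17, 22.9 and 21.7 CPM with S1P. The groups did not overlap, although S1P replicate 1 was only slightly above the highest vehicle sample, and the log2 difference was 0.50 with a standard error of 0.13 (0.41 without S1P replicate 2). Per 100 Cd4 counts, Cd40lg gave 7.08 ± 0.343 counts with vehicle and 9.43 ± 0.973 with S1P, again without overlap.

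Gata3 (ENSMUSG00000015619, chr2:9861889-9894845, minus strand) had the largest difference among the genes that were higher. It was at 20.1, 23.5 and 18.5 CPM with vehicle and at 32.8, 32.3 and 31.1 CPM with S1P, a log2 difference of 0.63 with a standard error of 0.10 that was also 0.63 without S1P replicate 2. All S1P samples were above all vehicle samples. Exons of Gm13256 on the opposite strand cover 6.66% of its exon bases and those of Gata3un on the same strand 1.69%.

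Of the Treg genes, Foxp3 (ENSMUSG00000039521, chrX:7439883-7461484, plus strand) was counted only 91 to 135 times per library. It was at 7.78, 7.85 and 8.62 CPM with vehicle and at 6.86, 11.0 and 7.14 CPM with S1P. The groups overlapped, and S1P replicate 2 was the highest of all samples while the other S1P replicates were the lowest. The log2 difference was 0.02 with a standard error of 0.18, and it was -0.21 without S1P replicate 2. It was also at -0.01 without vehicle replicate 1 and at -0.02 with limma-voom, so its direction is not settled. Per 100 Cd4 counts Foxp3 gave 3.98 ± 0.202 counts with vehicle and 3.77 ± 0.474 with S1P (SD, n = 3 each), and these groups also overlapped. Exons of Flicr on the same strand cover 18.6% of the Foxp3 exon bases, and exons of Ccdc22, Gm36995 and Ppp1r3f on the opposite strand cover 18.7%.

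Ikzf2 (ENSMUSG00000025997, chr1:69570373-69727004, minus strand) was at 16.8, 20.4 and 18.8 CPM with vehicle and at 29.1, 23.1 and 25.8 CPM with S1P. The groups did not overlap, and S1P replicate 2 was here the lowest of the S1P samples. The log2 difference was 0.49 with a standard error of 0.11, and 0.57 without S1P replicate 2. Helios and FOXP3 together mark thymus-derived Treg cells, and whether the values of the 2 genes differed from each other was not tested.

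**Figure D2:**
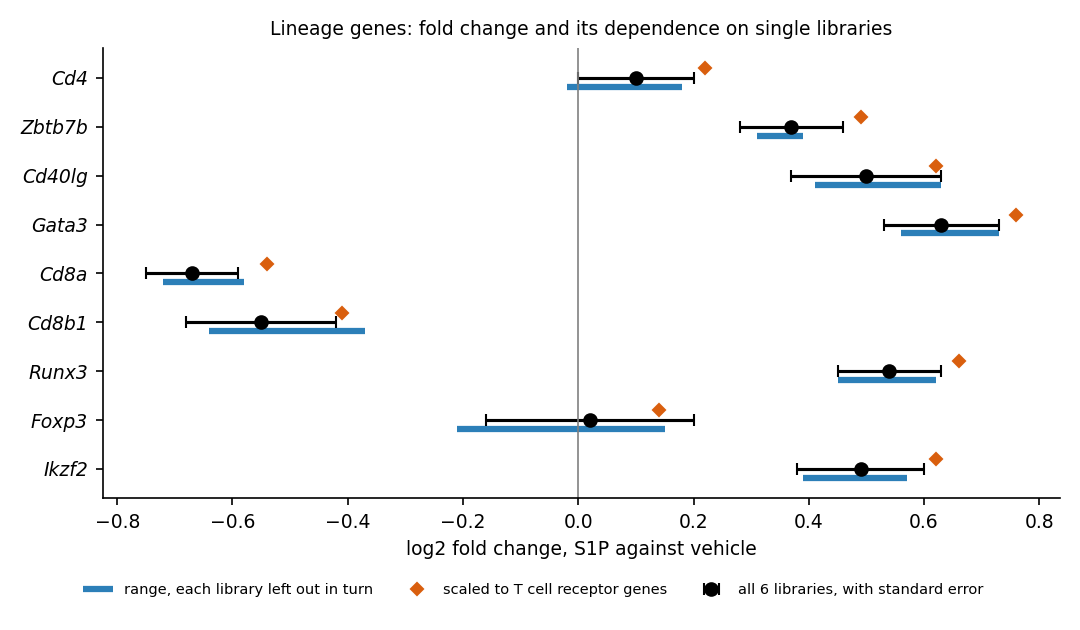
Log2 fold change of each lineage gene, S1P against vehicle. Black points are the values over all 6 libraries with their standard error, blue bars the range when each library is left out in turn, and orange diamonds the values with library size set to 7 T cell receptor complex genes; the blue bars of Cd4 and Foxp3 cross 0, and those of the other 7 genes do not.

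To compare levels between genes, CPM were divided by the length of all annotated exons in kilobases, which understates genes with long rare exons. With vehicle the order was Cd8a (61.0 ± 6.84 CPM per kb), Cd8b1 (53.0 ± 11.4), Cd4 (45.2 ± 4.08), Runx3 (18.0), Cd40lg (7.79), Gata3 (4.55), Zbtb7b (2.74), Foxp3 (1.77) and Ikzf2 (1.43). The means of Cd8a and Cd8b1, and of Cd8b1 and Cd4, were within their SD of each other. That SD is between libraries, while the genes were measured in the same libraries, and a comparison within libraries was not made. With S1P, Cd4 came first (48.6 ± 7.02 CPM per kb), ahead of Cd8a (38.3 ± 1.81) and Cd8b1 (36.1 ± 2.89), and Runx3 followed at 26.0. The means of the CD8 genes were again within their SD of each other. The coreceptor genes were among the most abundant transcripts, with Cd8a above 96.5% and Cd4 above 94.6% of the tested genes in the vehicle group, while Foxp3 was above 33.6% and Ikzf2 above 29.8%.

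The ratio of Cd4 to Cd8a counts, which needs no scaling between libraries, was used as a check on the mix of cells in each culture. It was 0.97 in vehicle replicate 1 (95% Wilson interval 0.926 to 1.02), 0.742 in replicate 2 (0.705 to 0.782) and 1.07 in replicate 3 (1.02 to 1.13). With S1P it was 1.35 (1.29 to 1.42), 1.93 (1.81 to 2.05) and 1.45 (1.36 to 1.54) in replicates 1 to 3. Every S1P-treated culture had more Cd4 than Cd8a counts and lay above every vehicle-treated culture, and the intervals, which cover counting error only, did not meet between the groups. Within each group the interval of replicate 2 lay apart from those of the other 2 replicates.

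The mean ratio was 0.929 ± 0.169 with vehicle and 1.58 ± 0.308 with S1P (SD, n = 3 each), 1.7 times as high. Vehicle replicate 2 had the lowest ratio and S1P replicate 2 the highest, and without S1P replicate 2 the S1P mean was 1.4 and the ratio of means 1.51. Expressed per kilobase of exon, the ratio was 0.751 ± 0.137 with vehicle and 1.27 ± 0.25 with S1P. The share of Cd4 in the sum of Cd4 and Cd8a counts was 42.6 to 51.8% with vehicle and 57.5 to 65.8% with S1P. Mature CD8+ T cells are known to keep Cd4 silenced, and which cells gave the Cd4 RNA was not tested.

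The coreceptor genes were also set against T cell receptor RNA. Cd8a gave 15.4 ± 1.1 counts per 100 counts of 7 receptor complex genes (Cd3d, Cd3e, Cd3g, Cd247, Trac, Trbc1 and Trbc2) with vehicle and 10.6 ± 1.2 with S1P (SD, n = 3 each), without overlap. Cd4 gave 14.2 ± 1.67 and 16.5 ± 1.45 on the same scale, and the groups overlapped. Cd8b1 gave 8.1 ± 1.37 and 6.06 ± 0.92, and these groups overlapped as well. Scaling the libraries to these 7 genes moved the median log2 difference of all tested genes from 0.012 to 0.137, and on that scale Cd8a was at -0.54, Cd8b1 at -0.41, Cd4 at 0.22 and Runx3 at 0.66.

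**Figure D3:**
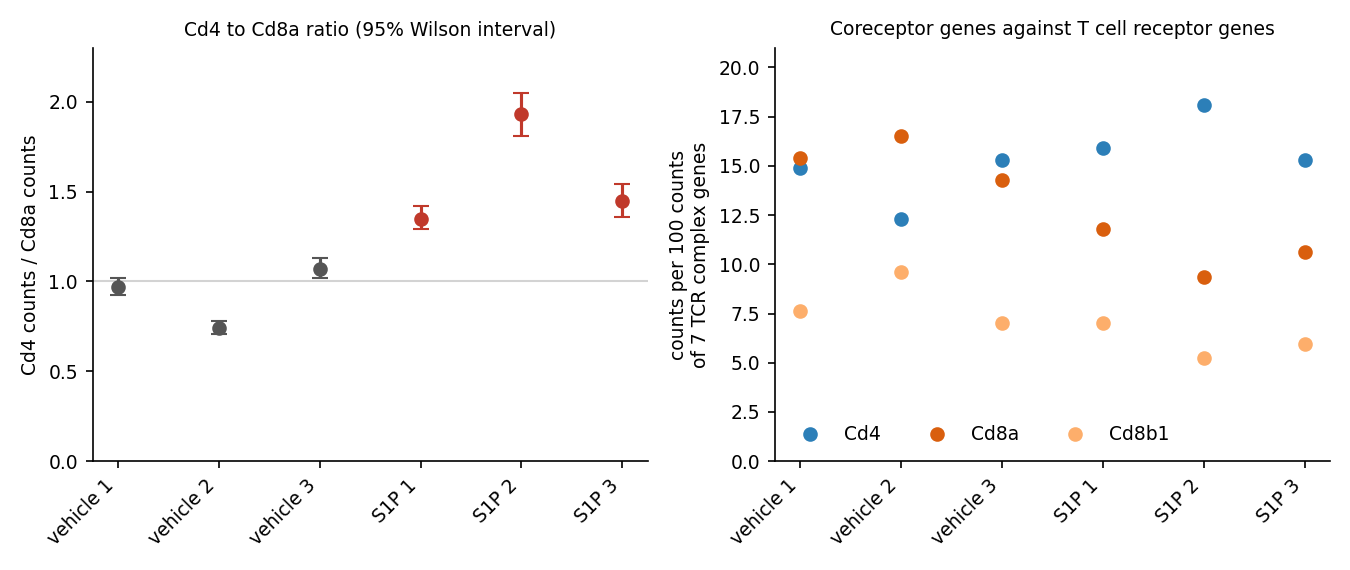
Left, the ratio of Cd4 to Cd8a counts in each of the 6 libraries with its 95% Wilson interval, 0.742 to 1.07 with vehicle and 1.35 to 1.93 with S1P. Right, Cd4, Cd8a and Cd8b1 counts per 100 counts of 7 T cell receptor complex genes in each library, where only Cd8a has groups that do not overlap.

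Related genes were then counted in lists of regulators and of genes that go with each branch, with the same edgeR quasi-likelihood fit and thresholds and with p-values adjusted by the Benjamini-Hochberg method across the 13299 genes. The lists do not contain the 9 genes above, but they too were chosen with earlier results of these data known, so no direction is read from their counts. Their genes are given for what each showed, and their counts are set beside the 23.1% of all tested genes that passed and the median log2 fold change of 0.012 over all tested genes. Genes of these lists named beyond the largest rise, the largest fall and the 2 highest levels per kilobase were chosen after their values were seen.

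Of 18 regulators of the CD4 and CD8 lineages, all of them tested, 3 rose, 1 fell and 14 did not pass (22.2% passed, median log2 fold change -0.02). The number that fell was 2 with total counts, with no filter on low counts and without vehicle replicate 2 or S1P replicate 3. It was 0 without S1P replicate 2. Ikzf1, described below among the paralogs, is also on this list. Satb1, a chromatin organizer needed for lineage choice in the thymus, rose from 382 ± 49.8 to 563 ± 24.2 CPM (log2 fold change 0.56, standard error 0.09, adjusted p = 0.00119). Tcf7, which encodes TCF1, fell from 229 ± 0.974 to 182 ± 13.1 CPM (-0.33, adjusted p = 0.0046), and without S1P replicate 2 it was at -0.29 and no longer past the threshold. Lef1, a relative of Tcf7, rose (0.31, adjusted p = 0.0188), as did Tox (0.46, adjusted p = 0.0185), and both lost the call when S1P replicate 2 or vehicle replicate 2 or 3 was left out, Lef1 also with total counts and with no filter on low counts. The 2 regulators with the highest level per kilobase of exon over all samples did not pass. Chd4, a remodeller that acts at the Cd4 gene, had a log2 fold change of -0.06 (adjusted p = 0.547) and Ets1 one of 0.18 (adjusted p = 0.0868). Runx1 and Cbfb, the relative and the common partner of RUNX3, were at 0.18 (adjusted p = 0.13) and -0.12 (adjusted p = 0.171).

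Of 17 tested genes of the CD8 effector programme, from 18 listed, 7 fell, 1 rose and 9 did not pass (47.1% passed, median -0.17). Xcl1, a chemokine that attracts cross-presenting dendritic cells, fell from 110 ± 10.3 to 32.9 ± 9.56 CPM (log2 fold change -1.76, standard error 0.16, adjusted p = 4.24e-05). Crtam, an adhesion receptor of activated CD8+ T cells, fell from 166 ± 7.17 to 80.6 ± 5.52 CPM (-1.04, adjusted p = 1.11e-05), and Eomes, a T-box factor of effector and memory CD8+ T cells, from 65.0 ± 2.61 to 36.0 ± 5.56 CPM (-0.86, adjusted p = 0.000162). Nkg7, a cytotoxic granule protein, was at -0.90 (adjusted p = 4.65e-05), the chemokine Ccl4 at -1.05 (adjusted p = 3.62e-05), the protease Ctsw at -0.58 (adjusted p = 0.00652) and the cytokine Ifng at -0.50 (adjusted p = 0.00162), and all 7 calls held in each of the 14 alternatives.

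The granule protease Gzmb, the most abundant gene of this list, was at 2250 ± 338 CPM with vehicle and 2090 ± 73.1 CPM with S1P (-0.10, adjusted p = 0.479). Prf1, which encodes perforin, was at -0.24 (adjusted p = 0.0666) and Tbx21, which encodes T-bet, at -0.17 (adjusted p = 0.102). The chemokine Ccl5 was the 1 gene that rose (0.69, adjusted p = 0.0374), from 3.03 ± 0.701 to 4.81 ± 0.902 CPM with groups that overlapped, and it lost the call without vehicle replicate 1 or 2 and without S1P replicate 1 or 3. Exons on the opposite strand cover 18.7% of the exon bases of Xcl1, and exons on the same strand cover 25.9% of those of Ifng.

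Of 15 tested CD4 helper genes of 20 listed, 3 rose, 2 fell and 10 did not pass (33.3% passed, median 0.12). The number that rose was 1 without vehicle replicate 3. Tnfsf8, which encodes CD30 ligand, rose from 164 ± 14.5 to 220 ± 9.52 CPM (0.42, adjusted p = 0.00221). Il3 rose from 0.687 ± 0.0944 to 1.59 ± 0.295 CPM (1.18, adjusted p = 0.0142), a call lost without vehicle replicate 3 or S1P replicate 3, and Il21, a cytokine of follicular helper cells, was past the threshold (0.48, adjusted p = 0.0379) but lost the call in 9 of 14 alternatives. The chemokine receptor Ccr6 fell from 3.36 ± 0.7 to 1.62 ± 0.325 CPM (-1.04, adjusted p = 0.00972), with 46.7% of its exon bases under exons of the opposite strand. In which cells of these cultures, where B cell markers were also detected, Ccr6 fell was not tested. Tnfsf11, which encodes RANKL, also fell (-0.59, adjusted p = 0.0194), and this call was lost without vehicle replicate 1 or 3 or S1P replicate 3. Icos, the abundant costimulatory receptor of helper cells, was at 0.06 (adjusted p = 0.53). The other tested helper cytokines, Il4 and Il13, were at 0.55 (adjusted p = 0.252) and 0.50 (adjusted p = 0.152). Il5, Il17a, Il17f and Il22 had too few counts to be tested.

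Of 20 tested Treg-associated genes of 22 listed, 8 rose, 1 fell and 11 did not pass (45% passed, median 0.29). Ctla4, an inhibitory receptor, rose from 254 ± 69.3 to 487 ± 16.4 CPM (0.94, standard error 0.14, adjusted p = 0.000826). The costimulatory receptors Tnfrsf4 (OX40), Tnfrsf9 (4-1BB) and Tnfrsf18 (GITR) rose by 0.60 (adjusted p = 0.000121), 0.62 (adjusted p = 0.000201) and 0.48 (adjusted p = 0.012) on the log2 scale. Ebi3, a subunit of interleukins 27 and 35, rose from 2.28 ± 0.0923 to 4.56 ± 0.575 CPM (1.01, adjusted p = 0.00269), and Ikzf4, which encodes Eos, a relative of Helios, from 19.2 ± 1.72 to 26.2 ± 2.17 CPM (0.44, adjusted p = 0.00755). Lrrc32, which carries latent TGF-β, was at 0.66 (adjusted p = 0.0144) and the chemokine receptor Ccr8 at 0.59 (adjusted p = 0.0486).

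Ctla4, Tnfrsf4, Tnfrsf9 and Tnfrsf18 are also known to be induced by activation in conventional T cells. In which cells the genes of the Treg list rose was not tested. Il2ra, which encodes CD25 and was the most abundant of the list, was at 1020 ± 61.2 CPM with vehicle and 1200 ± 60.2 CPM with S1P (0.23, adjusted p = 0.0439), short of the fold threshold. Il1rl1, the receptor of interleukin 33, fell from 5.47 ± 0.281 to 0.864 ± 0.566 CPM (-2.76, standard error 0.32, adjusted p = 0.000153), on 7, 17 and 9 counts with S1P, and without S1P replicate 2 the difference was -3.36. Gpr83, Nrp1 and Il10, also genes of Treg cells, were at -0.39 (adjusted p = 0.0939), -0.30 (adjusted p = 0.125) and 0.25 (adjusted p = 0.458). The call of Ccr8 was lost in 7 of 14 alternatives, that of Lrrc32 without vehicle replicate 1 or 3 or S1P replicate 3, and that of Tnfrsf18 without vehicle replicate 3 or S1P replicate 3. Of the Treg list 5 genes rose without vehicle replicate 3 or S1P replicate 3, and 3 fell without vehicle replicate 2 or with no filter on low counts. Exons on the opposite strand cover 51.1% of the exon bases of Ebi3 and 35.9% of those of Tnfrsf18.

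Partners and targets of GATA3 passed at about the rate of all genes. Of 15 tested genes of 17 listed, 1 rose (Ccr8), 2 fell (Il1rl1 and Zfpm1) and 12 did not pass (20.0% passed, median 0.14). The number that rose was 3 with upper-quartile factors, 2 without S1P replicate 2 and 0 with DESeq2, with total counts, with no filter on low counts and without vehicle replicate 1 or 3. Zfpm1, which encodes FOG-1, a cofactor that binds GATA factors, fell from 57.4 ± 5.95 to 43.5 ± 5.53 CPM (-0.39, adjusted p = 0.0163), a call lost without vehicle replicate 2 or 3 or S1P replicate 3. Stat6 and Il4ra, the interleukin 4 pathway that induces Gata3 in helper cells, were at 0.14 (adjusted p = 0.12) and -0.25 (adjusted p = 0.0398, short of the fold threshold but past it without S1P replicate 1).

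Among paralogs of the 5 transcription factor genes, 10 of 13 listed were tested, and 1 rose (Ikzf4), 1 fell and 8 did not pass (20.0% passed, median 0.02). Foxp4 fell from 81.9 ± 2.31 to 64.6 ± 2.45 CPM (-0.34, adjusted p = 0.00342), while Foxp1, the more abundant of the 2, was at 0.05 (adjusted p = 0.618). Ikzf1, which encodes Ikaros, was at 807 ± 21.5 CPM with vehicle and 667 ± 23.7 CPM with S1P (-0.28, adjusted p = 0.0113, short of the fold threshold), and Ikzf3 was at -0.12 (adjusted p = 0.223). Ikzf1 was past the fold threshold with total counts, with no filter on low counts and without vehicle replicate 2 or S1P replicate 3, where 2 of the paralogs fell. Zbtb7a and Runx2, the relatives of Zbtb7b and Runx3, were at 0.02 (adjusted p = 0.836) and 0.00 (adjusted p = 0.982).

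**Figure D4:**
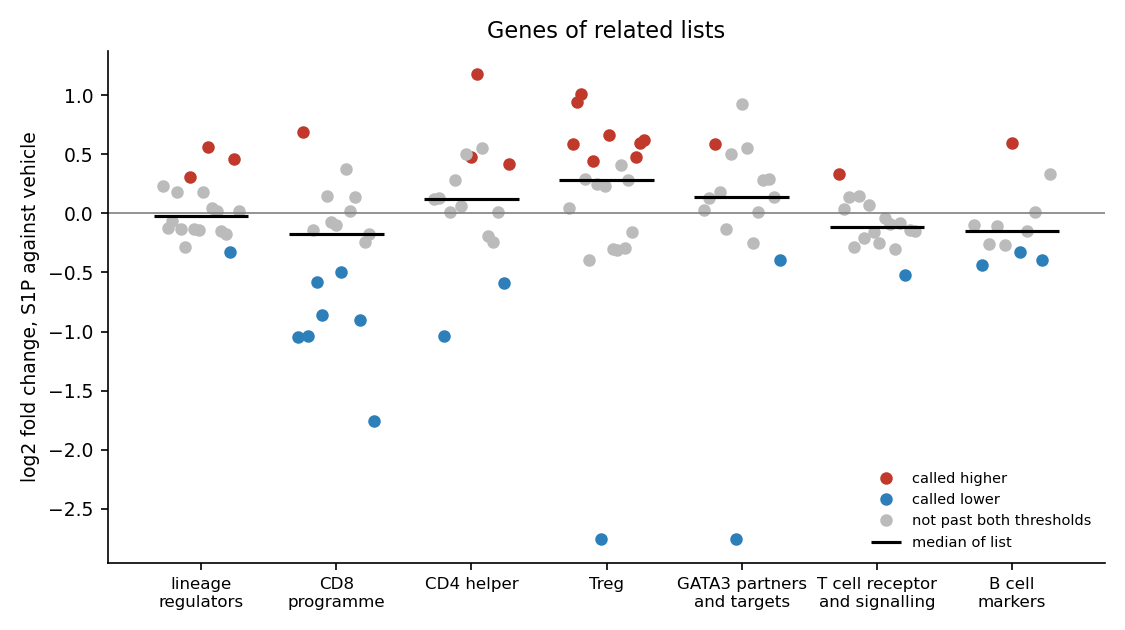
Log2 fold change, S1P against vehicle, of each tested gene of 7 related lists (points), red where higher and blue where lower past both thresholds and grey otherwise, with the list's median as a bar. The CD8 programme has 7 genes below and 1 above the threshold, and the Treg list has 8 above and 1 below. Of all tested genes, 12.7% were higher and 10.4% lower. The lists were chosen with earlier results of these data known, so no direction is read from these counts.

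Markers of other cells were set beside the lineage genes. The 11 B cell markers, none at 0, summed to 2290, 1860 and 2280 CPM with vehicle and to 1940, 1930 and 2010 CPM with S1P. Vehicle replicate 2, which had the most Cd8a and Cd8b1 and the least Cd4 of its group, also had the smallest B cell sum of all 6 libraries on this scale. On total counts S1P replicate 2 had the smallest (1820 against 1860 CPM). The part of B cell RNA in the differences of the lineage genes was not tested. Of the 11 B cell markers, 1 rose, 3 fell and 7 did not pass (36.4% passed, median -0.15). The number that rose was 2 with DESeq2 and without S1P replicate 1. The number that fell was 5 without vehicle replicate 2 or S1P replicate 1 and 1 without vehicle replicate 1 or 3. Ebf1 rose from 25.9 ± 3.49 to 39.3 ± 3.68 CPM (0.60, adjusted p = 0.00235) and Cd22 fell from 107 ± 15.3 to 79.1 ± 3.32 CPM (-0.44, adjusted p = 0.00642), whereas Ighm, the heavy chain of IgM, was at 528 ± 47.7 and 533 ± 14.6 CPM (0.01, adjusted p = 0.912) and Cd74 at -0.26 (adjusted p = 0.0764), past the thresholds without vehicle replicate 2 or S1P replicate 1. Ms4a1 and H2-Aa fell as well (-0.39 and -0.33, adjusted p = 0.00889 and 0.0353), calls that were lost without vehicle replicate 1 or 3 and, for H2-Aa, without S1P replicate 2.

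The 7 T cell receptor and CD3 chain genes used for scaling summed to 1350, 1520 and 1450 CPM with vehicle and 1220, 1410 and 1340 CPM with S1P. They are part of a list of 16 T cell receptor, signalling and surface genes, which also holds Lck, Zap70, Lat, Thy1 and the pan-leukocyte gene Ptprc and summed to 6090, 6270 and 6190 CPM with vehicle and 5750, 6080 and 5820 CPM with S1P. Sums of lists that differ in the number and length of their genes are not comparable with each other. Of these 16 genes, 1 rose, 1 fell and 14 did not pass (12.5% passed, median -0.12). The number that fell was 3 with total counts, with no filter on low counts and without vehicle replicate 1, and 2 with DESeq2 and without S1P replicate 2 or 3. Cd2, an adhesion receptor, rose from 219 ± 7.82 to 276 ± 33.2 CPM (0.33, adjusted p = 0.0131), a call lost without vehicle replicate 1 or S1P replicate 2. Trbc1, a constant region of the β chain, fell from 167 ± 4.23 to 116 ± 18.8 CPM (-0.52, adjusted p = 0.00325), while its near copy Trbc2 was at -0.14 (adjusted p = 0.31) and Trac at -0.08 (adjusted p = 0.459). How reads that match both Trbc1 and Trbc2 were counted is not given in the sources used here, and the split between them could depend on it.

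The 6 NK cell markers, none at 0 in all libraries, summed to 2.71 to 3.66 CPM with vehicle and 2.7 to 4.74 CPM with S1P, and the 10 myeloid markers, of which S100a8 and S100a9 were at 0 in all libraries, to 4.91 to 5.85 and 4.95 to 7.99 CPM. The highest sum of both lists was that of S1P replicate 2. Of 6 listed markers of γδ and innate-like T cells, the 4 matched in the table (Trdc, Sox13, Zbtb16 and Blk) summed to 25.7 to 29.6 CPM with vehicle and 23.1 to 25.2 CPM with S1P. Blk, which B cells also express, supplied 12.1 ± 1.7 and 11.0 ± 2.0 CPM of these sums. Trdc, the δ chain constant region, fell from 14.6 ± 0.413 to 11.5 ± 0.374 CPM (-0.35, adjusted p = 0.0252), a call lost in 7 of 14 alternatives, including 5 of the 6 that leave out a library. The part of these cells in the lineage results was not tested.

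**Figure D5:**
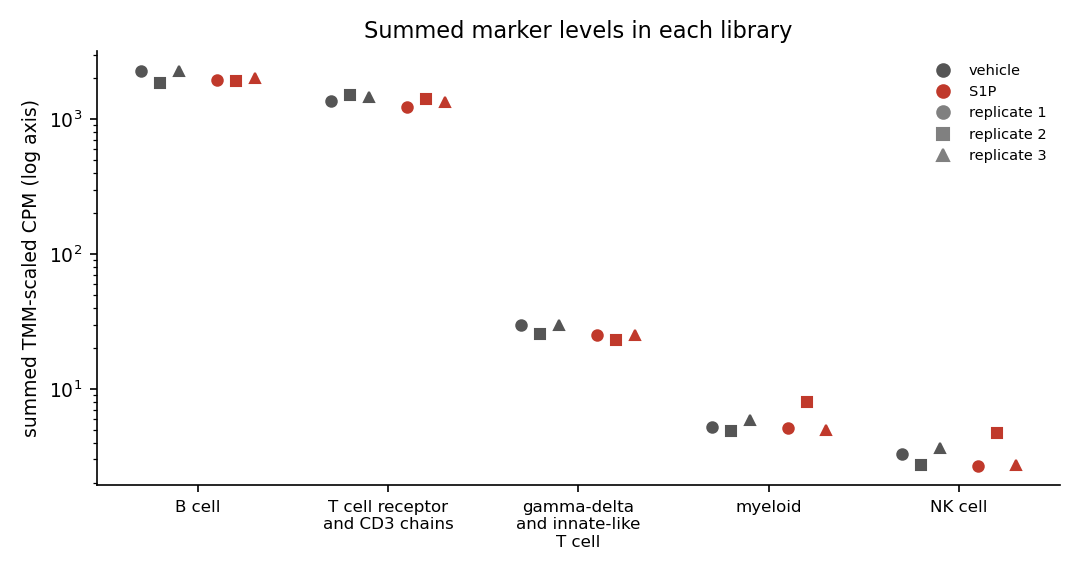
Summed TMM-scaled CPM of 5 lists in each of the 6 libraries on a log axis, vehicle in grey and S1P in red. Within each list the libraries can be compared, as for B cell markers (1860 to 2290 CPM) and the 7 T cell receptor and CD3 chains (1220 to 1520 CPM), but the lists differ in the number and length of their genes.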

How the data were processed

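RNA-seq of 3 vehicle-treated and 3 S1P-treated samples was used. Per the study's methods, the authors prepared strand-specific libraries of polyadenylated RNA, used Trim Galore for trimming, STAR for alignment and featureCounts for gene counts. The submitters' processing notes name GRCm39 and give no tool versions. The deposited values are whole-number counts without normalization. The annotation release and strand setting are not given in the sources used here, and antisense or overlapping exons, named above, can then share reads. All 6 count columns were used, and the number of count columns of no sample was 0.

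Of 56941 Ensembl identifiers, 56323 matched GENCODE vM39 on GRCm39. Genes kept by filterByExpr (13299) were scaled by TMM and tested with edgeR 4.0.16 (limma 3.58.1, R 4.3.3), by the quasi-likelihood test with treatment as the only term. The thresholds were 0.05 for the Benjamini-Hochberg adjusted p and 0.3 for the size of the log2 difference. The members and lists were chosen with earlier results of these data known. Named list genes are the largest rise and the largest fall past the thresholds and the 2 with the highest level per kilobase, and others were chosen after their values were seen. Ratios are of counts, with 95% Wilson intervals. Standard errors were derived from the quasi-likelihood test, as the size of the log2 fold change divided by the square root of the F statistic. At these depths the median standard error of a log2 fold change was 0.11.

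Alternatives were DESeq2 1.42.0, limma-voom, RLE, upper-quartile or no factors, no filter or at least 10 counts in every sample, the replicate number as a block, each library left out, other thresholds and denominators, and, chosen after seeing the data, scaling to 7 T cell receptor genes. The code was first tested on simulated counts with known changes. Promoter windows came from RefSeq. One marker list is not reported here.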

Additional observations from a re-analysis of the deposited data

How the results depend on the processing

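Of the 9 lineage genes, 7 kept their direction in all 14 alternatives and under T cell receptor scaling. With each library left out in turn, Cd8a ranged from -0.72 to -0.58, Cd8b1 from -0.64 to -0.37, Runx3 from 0.45 to 0.62, Gata3 from 0.56 to 0.73, Ikzf2 from 0.39 to 0.57, Cd40lg from 0.41 to 0.63 and Zbtb7b from 0.31 to 0.39 (log2 fold change). Cd4 ranged from -0.02 (without S1P replicate 2) to 0.18 and Foxp3 from -0.21 (without S1P replicate 2) to 0.15. Foxp3 was also at -0.01 without vehicle replicate 1, at -0.02 with limma-voom and at -0.01 with total counts or no filter. Ighm turned to -0.01 with total counts, -0.02 with no filter or without S1P replicate 3 and -0.06 without vehicle replicate 2. Single libraries also turned Gzmb (-0.17 to 0.02, without vehicle replicate 2), Ncr1 (-0.79 to 0.04, without S1P replicate 1), Klre1 (-0.41 to 0.06, without vehicle replicate 3), Cd68 (-0.09 to 0.24, without S1P replicate 2) and Blk (-0.23 to 0.01, without S1P replicate 2). The cause was not tested. The genes that passed, 1687 higher and 1384 lower, became 383 and 82 at a log2 fold change of 1. Over the regulator, CD8, CD4 helper and Treg lists 15 genes rose, and 8 (without vehicle replicate 3) to 14 did with a library left out, while 10 to 14 fell against 11. The mean Cd4 to Cd8a ratio of 0.929 with vehicle became 1.8 over Cd8b1, 0.612 over both CD8 genes and 0.751 per kilobase, and the S1P mean of 1.58 became 2.77 and 1 over those denominators. The ratio of the means stayed at 1.51 to 1.84.

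The labels do not say whether equal replicate numbers share a mouse or day. Deviations of same-numbered samples correlated at 0.12, -0.01 and 0.05, and those of differently numbered samples at -0.1 to 0.05. With the replicate number as a block, 1697 genes were higher and 1423 lower, and Cd8a was at -0.66, Cd4 at 0.10 and Runx3 at 0.54. Foxp3 had few counts, 91 to 135 per library, and whether these set its spread was not tested.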
